A study of Mus musculus with 18 samples.

Results

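Viral restriction factors are host proteins that block a step of viral replication inside the infected cell. The 8 examined here were the membrane proteins Bst2, Ifitm1, Ifitm2 and Ifitm3, the GTPases Mx1 and Mx2, the nucleotide-hydrolysing enzyme Samhd1 and the cytidine deaminase Apobec3. They were taken by gene name from a table of 16248 genes in 18 RNA-seq libraries, and all 8 names were in the table. Each library held RNA of cells sorted as endothelial cells (ECs), which form the inner lining of vessels. They were sorted from female FVB mice as live cells without CD45 and with CD31. Below, ECs means these sorted cells, whose RNA also held markers of other cell types. Normal ECs were taken from wild-type mammary fat pads. MMTV-PyMT ECs came from breast tumours that arise spontaneously where the MMTV promoter drives the polyoma middle T oncogene in mammary epithelium. Implanted tumour ECs came from wild-type hosts whose fat pad had received briefly cultured MMTV-PyMT tumour cells, so that the hosts themselves carried no transgene. Each tissue was injected with PBS or with cGAMP, a small nucleotide messenger that switches on STING, an adaptor of cytosolic DNA sensing, and was harvested 3 h later. There were 6 groups of 3 libraries, the labels give no ages, and the study's methods describe young adult mice. The labels name no gene deletion in any group.

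STING activation turns on type I interferon, which signals through its receptor and the JAK kinases and so turns on a broad set of interferon-stimulated genes. The ISRE and the GAS element are DNA elements found in the promoters of such genes. Restriction factors act at different places. Bst2 (tetherin) holds budding virions at the cell surface, the IFITM proteins block fusion of virus with cell membranes, and the Mx proteins are dynamin-like GTPases that trap incoming viral components. Samhd1 destroys the deoxynucleotides that reverse transcription needs, and Apobec3 deaminates retroviral DNA and hinders its synthesis. In many inbred laboratory mouse strains the Mx genes carry mutations that disrupt the protein. The alleles of the mice used here were not examined, and GENCODE M21 annotates Mx2 as a polymorphic pseudogene, so Mx values below are transcript levels only.

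In GENCODE M21 (mm10, GRCm38), the 3 IFITM genes lay within a short stretch of chromosome 7. Ifitm2 spanned chr7:140954837-140955987 on the minus strand, Ifitm1 chr7:140967221-140969825 on the plus strand and Ifitm3 chr7:141009586-141010770 on the minus strand. Mx1 (chr16:97447035-97462907, minus) and Mx2 (chr16:97535308-97560900, plus) were neighbours on chromosome 16. Bst2 lay at chr8:71534255-71537456 (minus), Samhd1 at chr2:157097533-157135265 (minus) and Apobec3 at chr15:79891659-79915906 (plus). Reads of near-identical copies can be split or dropped in counting. Of all 75-base stretches in its transcripts, Ifitm2 shared 42% with transcripts of other genes, chiefly the overlapping gene model Gm45717, and Apobec3 shared 6.3%, chiefly with the overlapping D730005E14Rik. Levels of Ifitm2 and Apobec3 are therefore uncertain in absolute terms. Mx1 and Mx2 shared 73 such stretches with each other, 1.71% of the stretches of Mx1 and 2.01% of those of Mx2. Bst2 shared none, and Ifitm1, Ifitm3 and Samhd1 shared 0.582%, 0.662% and 0.934%.

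The promoters of interferon targets are shown because 6 of the 8 genes had a RefSeq window (GRCm38.p6), which runs from 250 bases before the transcription start to 50 after it. An ISRE core (GAAANNGAAA, either strand) occurred in 3.44% of all 32851 windows, and a GAS element (TTCNNNGAA, the same on both strands) in 8.3%. Bst2, Ifitm2, Ifitm3 and Apobec3 held an ISRE core, against 3.64% of the 11050 table genes with a window, and Bst2, Ifitm3 and Samhd1 held a GAS element, against 8.33%. Bst2 carried a GAS element that overlapped the first of 2 overlapping ISRE cores, beginning 136, 130 and 124 bases before the start. Ifitm2 had 1 core 46 bases before its start. Apobec3 had 2 RefSeq starts, and only the first had a match, on the opposite strand, 140 bases before it. Samhd1 had no core and a GAS element 235 bases before its start. The 250 bases before each of those 4 starts are given 5′ to 3′ with the matches in capitals (Bst2, chr8:71537473-71537722, minus; Ifitm2, chr7:140955962-140956211, minus; Samhd1, chr2:157135097-157135346, minus; Apobec3, chr15:79892158-79892407, plus). In Ifitm3 the matches lay within 27 bases that begin 3 bases after the start (chr7:141010716-141010742, minus), where the GAS element overlapped the second of 2 cores. No match was found in the window of Ifitm1.
Bst2: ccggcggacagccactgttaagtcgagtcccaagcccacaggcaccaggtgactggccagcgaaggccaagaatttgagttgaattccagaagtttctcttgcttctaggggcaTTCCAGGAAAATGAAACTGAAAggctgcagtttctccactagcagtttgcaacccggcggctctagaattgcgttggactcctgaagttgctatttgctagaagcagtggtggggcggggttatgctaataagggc
Ifitm2: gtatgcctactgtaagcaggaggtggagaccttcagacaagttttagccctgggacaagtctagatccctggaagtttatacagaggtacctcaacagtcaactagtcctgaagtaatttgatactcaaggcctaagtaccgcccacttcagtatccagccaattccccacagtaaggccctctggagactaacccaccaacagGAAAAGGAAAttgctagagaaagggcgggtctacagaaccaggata
Samhd1: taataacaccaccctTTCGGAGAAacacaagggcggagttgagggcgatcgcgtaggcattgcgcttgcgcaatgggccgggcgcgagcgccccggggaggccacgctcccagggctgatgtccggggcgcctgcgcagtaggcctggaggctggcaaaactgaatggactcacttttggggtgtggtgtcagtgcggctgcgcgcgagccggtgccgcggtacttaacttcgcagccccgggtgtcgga
Apobec3: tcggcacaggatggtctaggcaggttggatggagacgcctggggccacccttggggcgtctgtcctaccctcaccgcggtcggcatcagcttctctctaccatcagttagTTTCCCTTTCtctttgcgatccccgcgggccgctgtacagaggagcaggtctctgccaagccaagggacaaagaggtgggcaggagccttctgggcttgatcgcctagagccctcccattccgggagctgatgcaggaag
Ifitm3: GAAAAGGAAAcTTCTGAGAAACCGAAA

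**Figure D1:**
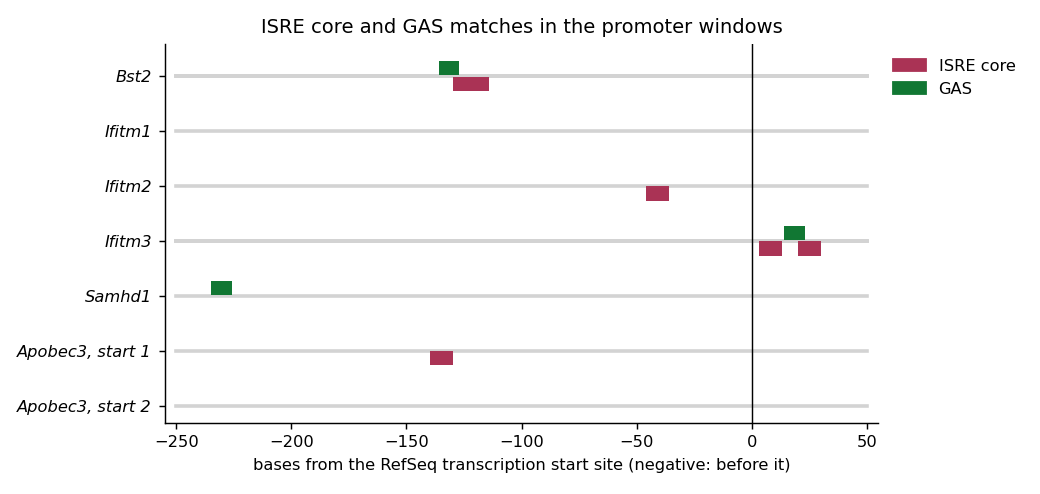
Position of each match in the RefSeq promoter windows, with distance from the transcription start site in bases on the horizontal axis and 1 line per window. The Bst2 and Ifitm3 windows each held 2 ISRE cores (red) and a GAS element (green), at 136 to 124 bases before the start and at 3 to 20 bases after it, and the windows of Ifitm1 and of the second Apobec3 start held neither.

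Values are FPKM, that is fragments scaled by gene length and by sequencing depth, so that levels of different genes can be set side by side. Recovered reads ranged from 9184658 to 12200551 per library. The sum of 8 EC markers was 715 to 1731 FPKM over the 18 libraries. That of 8 measured leukocyte markers was 20.9 to 81.4 FPKM in 17 libraries and 269 in implanted cGAMP 2. Epithelial markers summed to 313 to 395 FPKM in normal PBS and to 838 to 905 in MMTV-PyMT PBS. Mural and fibroblast markers summed to 811 to 921 and 296 to 348 FPKM in the same groups, and EC markers to 1003 to 1129 and 715 to 871.5. In MMTV-PyMT PBS 2 and 3 the epithelial sum (905 and 885 FPKM) was above the EC sum (762 and 715). Differences between groups of sorted cells may therefore not be differences of endothelium alone, and the part of other cell types was not tested. In these bulk samples, fewer cells of a type and less RNA per cell cannot be told apart. The total that FPKM was divided by, set against the recovered reads, was 0.735 to 0.830 in implanted cGAMP and 0.964 to 1.15 in the other groups. Scaling by recovered reads shifted the median log2 difference of all tested genes between cGAMP and PBS in implanted tumour ECs from -0.01 to -0.25. In all 18 libraries, Ifitm3 was the most abundant of the 8 genes. Under PBS, the order by mean FPKM in normal ECs was Ifitm3 (347), Ifitm2 (180), Bst2 (27.6), Samhd1 (16.0), Ifitm1 (10.1), Apobec3 (2.96), Mx2 (2.56) and Mx1 (0.242). Only 0.289% of the listed genes stood above Ifitm3 in that group and 95.3% stood above Mx1.

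**Figure D2:**
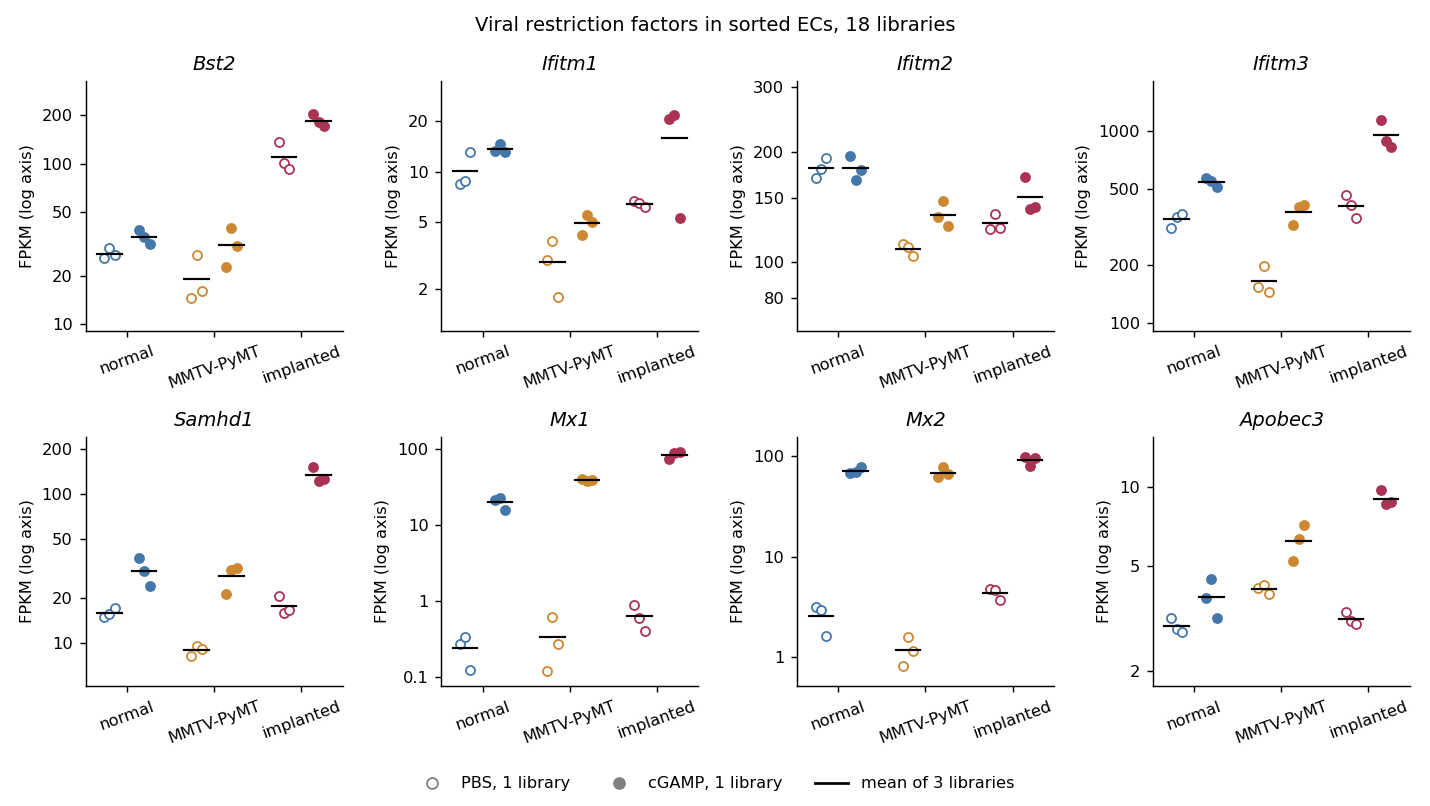
FPKM of the 8 genes on log axes, with 1 point per library (open, PBS; filled, cGAMP) and a bar at the mean of 3 libraries. Mx1 and Mx2 sit under 5 FPKM in all 9 PBS libraries and above 15 in all 9 cGAMP libraries, while Bst2 separates the implanted libraries (92.3 to 204 FPKM) from all others (14.6 to 40.1 FPKM).

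To ask which restriction factors change within 3 h of cGAMP, cGAMP was set against PBS in each tissue with limma on log2(FPKM + 1). A gene passed at an adjusted p under 0.05 over all 13983 tested genes. In normal ECs 4 of the 8 rose (Ifitm3, Samhd1, Mx1 and Mx2), where 13.7% of all tested genes rose. In MMTV-PyMT ECs 7 rose, all but Ifitm1, against 7.42% of tested genes, and Bst2 and Ifitm2 were lost under some alternatives. In implanted tumour ECs 7 rose, all but Ifitm2, against 20.3%, and Bst2 and Ifitm1 were lost under some alternatives. The lost calls are given with the values of each gene. None of the 8 passed in the downward direction in the fit described, where 18.2%, 4.57% and 18.8% of tested genes fell in normal, MMTV-PyMT and implanted tumour ECs, but Ifitm2 did in implanted tumour ECs once libraries were quantile normalized (-0.26, adjusted p = 0.00865). With the added demand of a 2-fold change, set as 1 on the log2(FPKM + 1) scale, 2 rose in normal ECs (background 3.02%), 4 in MMTV-PyMT ECs (2.49%) and 5 in implanted tumour ECs (6.13%). That scale understates ratios of mean FPKM at low levels, so Ifitm1 in implanted tumour ECs (0.97, ratio 2.47) was not counted. The median change of the 8 on the log2 scale was 0.53, 0.94 and 1.24 in the 3 tissues, beside -0.04, -0.04 and -0.01 over all tested genes. All 3 cGAMP libraries exceeded all 3 PBS libraries for 6 of the 8 in normal ECs (background 20.9%), 7 in MMTV-PyMT ECs (14.8%) and 7 in implanted tumour ECs (22.4%).

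**Figure D3:**
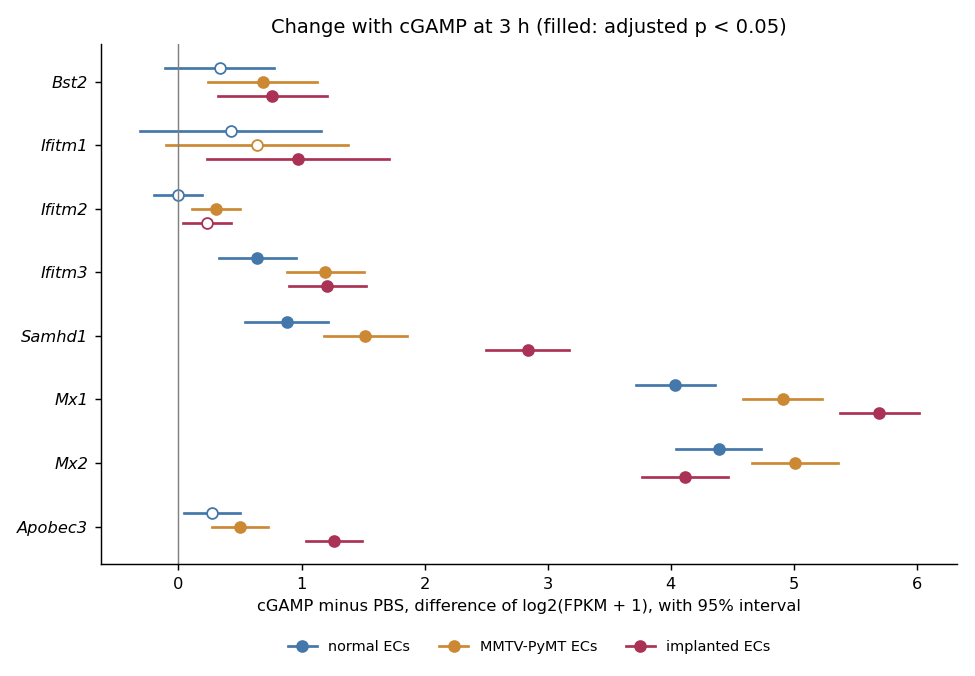
Difference of log2(FPKM + 1) between cGAMP and PBS for each gene and tissue (point) with its 95% interval (line), filled where the adjusted p was under 0.05. Mx1 and Mx2 lie at 4.04 to 5.69, Samhd1 extends from 0.88 in normal ECs to 2.84 in implanted tumour ECs, and the other genes lie below 1.3.

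Mx1 was close to silent under PBS and rose in all 3 tissues. By the ratio of mean FPKM, which rests on 5 to 31 reads per PBS library, its change exceeded that of Mx2, whereas on the log2(FPKM + 1) scale that of Mx2 was the larger in normal and MMTV-PyMT ECs. It stood at 0.269, 0.334 and 0.122 FPKM in the 3 normal PBS libraries (5 to 15 reads) and at 21.1, 22.1 and 15.4 FPKM under cGAMP. In MMTV-PyMT ECs it stood at 0.119, 0.609 and 0.270 FPKM under PBS (6 to 25 reads) and at 40.1, 37.2 and 38.5 FPKM under cGAMP. The groups lay far apart in both tissues. In implanted tumour ECs the PBS libraries read 0.877, 0.597 and 0.401 FPKM (15 to 31 reads), and the cGAMP libraries 72.5, 86.2 and 89.8 FPKM. Mean FPKM under cGAMP was 80.9 times that under PBS in normal ECs, 116 times in MMTV-PyMT ECs and 133 times in implanted tumour ECs. Without MMTV-PyMT PBS 2, the highest PBS library of that tissue, the ratio in MMTV-PyMT ECs was 198, so the order of the tumours turned on that library. On the log2(FPKM + 1) scale, which understates changes from such low levels, Mx1 rose by 4.04 ± 0.15 (SE, adjusted p = 2.53e-11), 4.91 ± 0.15 (2.34e-12) and 5.69 ± 0.15 (9.29e-13).

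Mx2 stood higher than Mx1 under PBS and was also among the genes that rose most. Under PBS it measured 3.16, 2.92 and 1.61 FPKM in normal ECs, 0.813, 1.58 and 1.15 in MMTV-PyMT ECs, and 4.71, 4.66 and 3.70 in implanted tumour ECs. Under cGAMP it measured 68.7, 70.3 and 77.7 FPKM in normal ECs, 62.5, 78.5 and 66.0 in MMTV-PyMT ECs, and 98.4, 79.8 and 97.0 in implanted tumour ECs. No PBS library came near a cGAMP library. The ratios of mean FPKM were 28.2, 58.3 and 21.1, and the log2 changes were 4.39, 5.01 and 4.11, each with SE 0.16 and with adjusted p from 4.31e-12 to 3.43e-11. The ratio of Mx2 to Mx1 within a library was lower under cGAMP in every tissue without overlap. Its median went from 11.8 to 3.26 in normal ECs, from 4.27 to 1.71 in MMTV-PyMT ECs and from 7.80 to 1.08 in implanted tumour ECs. The PBS ratios rested on 5 to 31 reads of Mx1 per library and so carry a large counting error. In MMTV-PyMT ECs the lowest PBS ratio was 2.60, beside a highest cGAMP ratio of 2.11.

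Samhd1, the deoxynucleotide-hydrolysing enzyme, differed most between tissues in its change. In normal ECs it went from 15.0, 15.9 and 17.2 FPKM under PBS to 37.3, 30.7 and 24.2 under cGAMP. In MMTV-PyMT ECs it went from 8.27, 9.69 and 9.17 FPKM to 21.4, 31.2 and 32.0. The implanted tumour ECs showed the widest change, from 20.7, 15.9 and 16.9 FPKM under PBS to 151, 123 and 125 under cGAMP. All cGAMP libraries lay above all PBS libraries of their tissue, and the implanted cGAMP libraries lay above every other library. The ratios of mean FPKM were 1.92, 3.12 and 7.48, and the log2 changes 0.88 ± 0.16 (SE, adjusted p = 0.000661), 1.52 ± 0.16 (4.49e-06) and 2.84 ± 0.16 (1.24e-09). In implanted tumour ECs, 0.486% of tested genes had a larger change than Samhd1.

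Apobec3, the deaminase, was low in every group and rose in both tumours. Under PBS it measured 2.80 to 3.19 FPKM in normal ECs, and under cGAMP 3.79, 4.45 and 3.18, so that these groups overlapped (log2 change 0.27 ± 0.11, adjusted p = 0.0644, but 0.0360 with quantile normalization and 0.0357 with voom). In MMTV-PyMT ECs it went from 4.13, 4.26 and 3.90 FPKM to 5.21, 6.31 and 7.18. For implanted tumour ECs the values went from 3.34, 3.09 and 3.02 FPKM to 9.66, 8.58 and 8.71. In neither tumour did the groups overlap, and the log2 changes were 0.50 ± 0.11 (adjusted p = 0.00633) and 1.27 ± 0.11 (1.35e-07), with ratios of mean FPKM of 1.52 and 2.85.

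Ifitm3, which acts in endosomal membranes, was among the most abundant transcripts and rose in all 3 tissues. It went from 314, 358 and 371 FPKM to 567, 546 and 509 in normal ECs, from 154, 199 and 146 to 326, 401 and 413 in MMTV-PyMT ECs, and from 463, 411 and 350 to 1133, 888 and 822 in implanted tumour ECs. The groups did not overlap in any tissue. The ratios of mean FPKM were 1.56, 2.29 and 2.32, and the log2 changes 0.64, 1.19 and 1.21 (SE 0.15 each), with adjusted p of 0.00386, 2.97e-05 and 7.95e-06. Quantile normalization brought the change in implanted tumour ECs down to 0.53, and it still passed.

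Its neighbour Ifitm2 hardly moved. It measured 170, 180 and 192 FPKM in normal PBS and 195, 168 and 178 in normal cGAMP, with full overlap and a log2 change of 0.00 (95% interval -0.20 to 0.19). In MMTV-PyMT ECs it went from 112, 110 and 104 FPKM to 133, 147 and 126 (log2 change 0.30 ± 0.09, adjusted p = 0.0414). The rise in MMTV-PyMT ECs did not pass with quantile normalization (0.19, adjusted p = 0.0940), scaling by total reads (0.17, 0.110), no variance trend (0.0509) or only the groups compared (0.0592). In implanted tumour ECs it went from 123, 136 and 124 FPKM to 171, 140 and 142 (0.24 ± 0.09, adjusted p = 0.0527). The small difference in implanted tumour ECs depended on scaling, at -0.26 when libraries were quantile normalized, which passed as a fall (adjusted p = 0.00865), and -0.08 (0.382) when they were scaled by total reads. Within a library, Ifitm3 was 1.85 to 1.99 times Ifitm2 in normal PBS and 5.80 to 6.62 times Ifitm2 in implanted cGAMP.

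Ifitm1, the IFITM protein of the cell surface, was the least abundant of the 3 and the most variable. It measured 8.44, 8.86 and 13.1 FPKM in normal PBS and 13.2, 14.6 and 13.2 in normal cGAMP, a log2 difference of 0.42 ± 0.35 (adjusted p = 0.379). In MMTV-PyMT ECs it measured 2.96, 3.88 and 1.80 FPKM under PBS and 4.22, 5.48 and 5.04 under cGAMP (0.64 ± 0.35, adjusted p = 0.258). In implanted tumour ECs it measured 6.65, 6.50 and 6.2 FPKM under PBS and 20.7, 21.7 and 5.33 under cGAMP. The third cGAMP library thus lay below every PBS library of that tissue, and the log2 change of 0.97 ± 0.35 (adjusted p = 0.0361) became 1.58 without it. The call was lost with scaling by total reads (0.68, adjusted p = 0.0893), with voom (0.95, 0.0858) and with only the groups compared (0.151). The summed mural and fibroblast markers moved with Ifitm1 in these 3 libraries, at 765, 748 and 344 FPKM, and were 383 to 393 FPKM in the implanted PBS libraries. Their part in the Ifitm1 values was not tested.

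Bst2 (tetherin) showed a modest change with cGAMP on very different starting levels. In normal ECs it measured 25.9, 29.8 and 27.1 FPKM under PBS and 38.9, 35.0 and 31.5 under cGAMP, which did not overlap but did not pass (log2 difference 0.34 ± 0.21, adjusted p = 0.24, and 0.0315 with only the groups compared). In MMTV-PyMT ECs it measured 14.6, 27.1 and 16.2 FPKM under PBS and 22.9, 40.1 and 30.9 under cGAMP, and these overlapped (0.68 ± 0.21, adjusted p = 0.0442). This call was lost with quantile normalization (0.62, adjusted p = 0.0659), scaling by total reads (0.55, 0.0571) and only the groups compared (0.121). In implanted tumour ECs it went from 136, 102 and 92.3 FPKM to 204, 181 and 171 (0.76 ± 0.21, adjusted p = 0.00883). The change in implanted tumour ECs was 0.31 (adjusted p = 0.272) when libraries were quantile normalized and 0.45 (0.0728) when they were scaled by total reads.

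To ask whether the cGAMP change itself differed between tissues, the differences of the changes were tested in the same fit. In implanted against normal ECs, 3 of the 8 had a larger change (Samhd1, Mx1 and Apobec3) and none a smaller one, where 12.5% of tested genes had a larger and 6.09% a smaller change. With quantile normalization Mx2 passed with a smaller change in implanted than normal ECs (-0.91, adjusted p = 0.0119), and Ifitm2 in implanted than MMTV-PyMT ECs (-0.44, 0.0100). The difference was 1.96 ± 0.23 on the log2 scale for Samhd1 (adjusted p = 3.1e-05) and 0.99 ± 0.15 for Apobec3 (adjusted p = 0.000339). In implanted against MMTV-PyMT ECs, Samhd1 (1.32 ± 0.23, adjusted p = 0.00141), Apobec3 (0.77 ± 0.15, adjusted p = 0.00376) and Mx1 had a larger change and Mx2 a smaller one, beside 7.34% and 3.72% of tested genes. The difference for Mx2 was -0.90 ± 0.23 (adjusted p = 0.0195). In MMTV-PyMT against normal ECs only Mx1 passed, with a larger change, beside 5.48% of tested genes with a larger and 2.90% with a smaller change. The comparisons that include the same tissue share its libraries and are not independent.

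The differences in the Mx1 change depended on how low values were treated. With a pseudocount of 1, the change of Mx1 differed by 1.66 ± 0.21 between implanted and normal ECs (adjusted p = 8.21e-05), by 0.87 ± 0.21 between MMTV-PyMT and normal ECs (0.0201) and by 0.78 ± 0.21 between implanted and MMTV-PyMT ECs (0.0254). With a pseudocount of 0.1 these were 1.001 (adjusted p = 0.171), 0.76 (0.3745) and 0.24 (0.818), and with voom on the recovered reads 0.69 (0.486), 0.82 (0.493) and -0.12 (0.927). The level of Mx1 under cGAMP differed between all 3 tissues under every alternative run. Samhd1 and Apobec3 in implanted tumour ECs passed against both other tissues under every alternative run and without any single library.

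Under PBS, the tissues already differed. In MMTV-PyMT against normal ECs, 6 of the 8 were lower (Bst2, Ifitm1, Ifitm2, Ifitm3, Samhd1 and Mx2) and Apobec3 was higher, where 26.6% of tested genes were lower and 29.8% higher. Ifitm1 was lower by 3.52-fold in mean FPKM (log2 difference -1.53 ± 0.35, adjusted p = 0.00144) and Ifitm3 by 2.09-fold (-1.07 ± 0.15, 1.76e-05). Mx2 was 2.17-fold lower, Samhd1 1.77-fold, Ifitm2 1.66-fold and Bst2 1.43-fold, and Apobec3 was 1.39-fold higher. The groups overlapped for Bst2 and Mx1, and the share of all tested genes without overlap between tissues was not computed. Other markers moved with these groups. Of 8 measured leukocyte markers, 5 were higher in every normal PBS library than in every MMTV-PyMT PBS library, among them Ptprc (1.98 to 6.31 against 0.262 to 0.333 FPKM) and Cd3e (1.88 to 5.90 against 0.0193 to 0.226), and none was lower throughout. Their sum, in which Lyz2 weighed most, was 31.8 to 72.3 FPKM in normal PBS and 20.9 to 32.4 in MMTV-PyMT PBS. By the same comparison 6 of 8 EC markers and 4 of 6 mural and fibroblast markers were higher in normal PBS. Col1a1 and Pdgfra, the other 2 mural and fibroblast markers, were higher in MMTV-PyMT PBS, as were 4 of 6 epithelial markers. The part of all these markers in the differences of the 8 genes was not tested.

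In implanted against normal ECs under PBS, Bst2, Mx1 and Mx2 were higher and Ifitm2 was lower, beside 25.0% and 23.6% of tested genes. Bst2 stood 3.99-fold higher (log2 difference 1.94 ± 0.21, adjusted p = 1.58e-06), and only 1.12% of tested genes had a larger difference. Mx2 stood 1.70-fold higher (0.61 ± 0.16, adjusted p = 0.00578) and Ifitm2 1.41-fold lower (-0.50 ± 0.09, adjusted p = 0.000328). Mx1 passed narrowly at under 1 FPKM in either group (0.38 ± 0.15, adjusted p = 0.0467). Between the 2 tumours, implanted ECs held more Bst2 (5.70-fold, log2 difference 2.48 ± 0.21, adjusted p = 3.61e-07), Ifitm1, Ifitm3, Samhd1 and Mx2 and less Apobec3, beside 20.8% of tested genes higher and 24.6% lower. Ifitm3 was 2.46-fold, Mx2 3.68-fold, Ifitm1 2.24-fold and Samhd1 1.97-fold higher, and Apobec3 was 1.30-fold lower.

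Bst2 is also a surface marker of plasmacytoid dendritic cells. Of 6 markers fixed for those cells, Siglech and Klk1 were not in the table, and Ccr9 and Bcl11a stood at 0.296 to 0.742 FPKM in normal PBS, at 0.104 to 0.796 in implanted PBS and at 0.236 to 0.406 in implanted cGAMP. The sum of the 4 measured markers was 17.6 to 19.5 FPKM in normal PBS, 30.5 to 37.5 in implanted PBS and 60.8 to 93.7 in implanted cGAMP, and Tcf4 and Irf8 made up most of it (medians of 22.8 and 9.27 FPKM in implanted PBS). In the other groups the sum was 28.1 to 30.1 FPKM (normal cGAMP), 15.2 to 18.7 (MMTV-PyMT PBS) and 25.6 to 38.2 (MMTV-PyMT cGAMP). Mean Bst2 in those groups was 35.1, 19.3 and 31.3 FPKM, beside 110 in implanted PBS. Median Irf8 was higher under cGAMP in each tissue, at 11.5 against 1.705 FPKM in normal ECs and 16.2 against 1.96 in MMTV-PyMT ECs. In implanted tumour ECs it was 41.9 against 9.27. The part of these markers in the Bst2 levels was not tested.

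**Figure D4:**
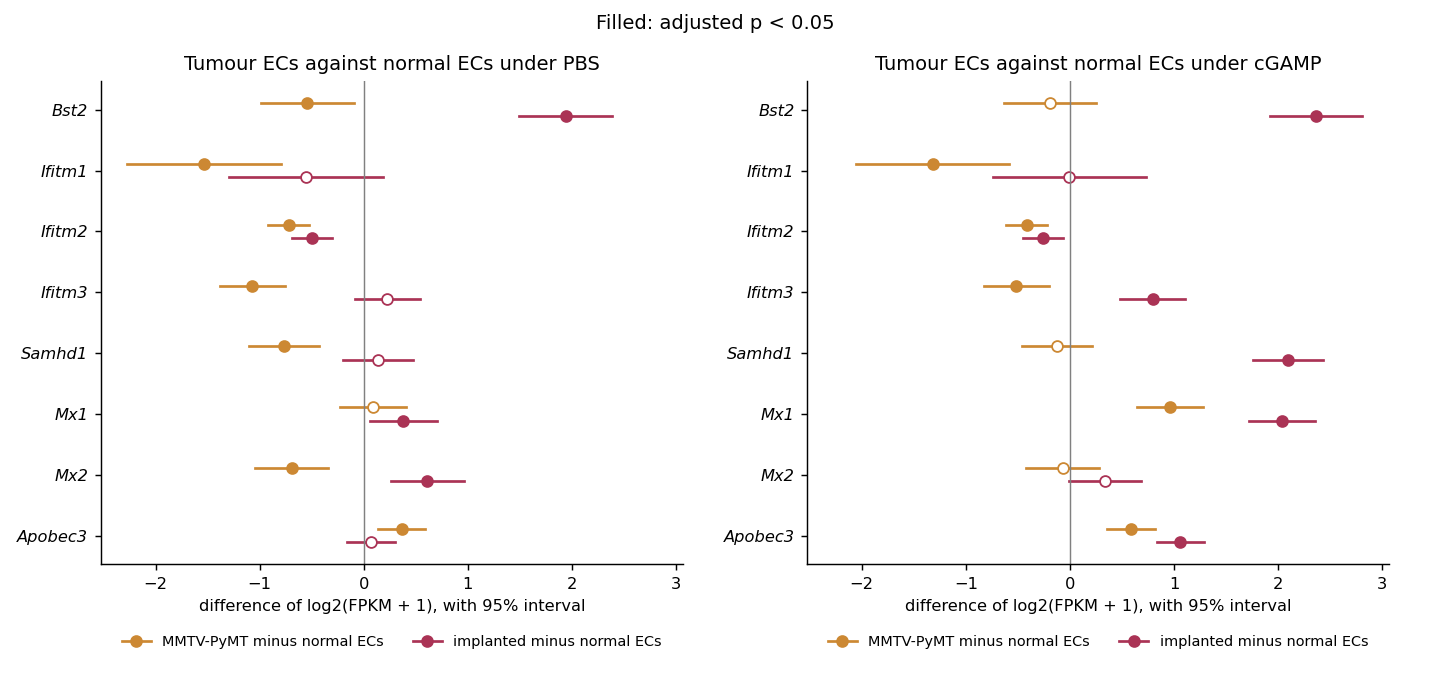
Difference of log2(FPKM + 1) between tumour and normal ECs under PBS (left) and cGAMP (right), with 95% intervals, filled where the adjusted p was under 0.05. Under PBS, 6 MMTV-PyMT points are filled left of 0, and under cGAMP the implanted points of Bst2, Samhd1, Mx1 and Apobec3 lie between 1.06 and 2.37.

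Under cGAMP, mean FPKM of the 8 genes was highest in implanted tumour ECs for all but Ifitm2. The share of all genes with that order was not computed. With quantile normalization, Mx2 was lower in implanted than normal ECs (log2 difference -0.25). In the fit described, Ifitm1 (log2 difference -0.007, adjusted p = 0.988) and Mx2 (0.34, 0.0922) did not pass against normal ECs. The Ifitm1 groups overlapped. Against normal ECs, Bst2, Ifitm3, Samhd1, Mx1 and Apobec3 were higher and Ifitm2 lower, beside 31.3% and 24.8% of tested genes. The log2 differences were 2.37 ± 0.21 for Bst2 (adjusted p = 1.19e-07), 2.10 ± 0.16 for Samhd1 (2.35e-08), 2.04 ± 0.15 for Mx1 (1.78e-08) and 1.06 ± 0.11 for Apobec3 (5.19e-07). In mean FPKM these were 5.27-fold, 4.34-fold, 4.24-fold and 2.36-fold. The difference of 0.80 for Ifitm3 (adjusted p = 0.000248) was -0.14 when libraries were quantile normalized and 0.30 (0.0511) when they were scaled by total reads.

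Against MMTV-PyMT ECs under cGAMP, 7 of the 8 were higher in implanted tumour ECs and none lower, beside 26.0% and 24.9% of tested genes. Bst2 was 5.92-fold, Samhd1 4.73-fold, Ifitm1 3.24-fold, Ifitm3 2.49-fold and Mx1 2.14-fold higher, and Apobec3 1.44-fold and Mx2 1.33-fold. The groups overlapped for Ifitm1, and the share of all tested genes without overlap was not computed for this comparison either. For Mx2 the difference of 0.41 (adjusted p = 0.0498) turned to -0.03 after quantile normalization, and for Apobec3 that of 0.47 was 0.17 (0.171) with scaling by total reads. Ifitm2 passed as lower in implanted than MMTV-PyMT ECs with quantile normalization (-0.28, adjusted p = 0.00422) and with scaling by total reads (-0.18, 0.0494), and the Ifitm1 call was lost with only the groups compared (0.0545). In MMTV-PyMT against normal ECs under cGAMP, Mx1 (1.98-fold) and Apobec3 (1.64-fold) were higher and Ifitm1, Ifitm2 and Ifitm3 lower, beside 28.7% and 22.1% of tested genes. The lower level of Bst2, Samhd1 and Mx2 seen in MMTV-PyMT ECs under PBS did not pass under cGAMP. Their log2 differences there were -0.19 (95% interval -0.64 to 0.25), -0.12 (-0.46 to 0.22) and -0.07 (-0.42 to 0.28). In the fit described, the difference of the cGAMP change between these tissues passed for none of them (adjusted p = 0.513, 0.0899 and 0.111). A loss of the difference was therefore not shown.

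Several calls lay near the threshold and turned on single libraries. Leaving out 1 library at a time, the rise of Bst2 in MMTV-PyMT ECs was lost without 11 of the 18 libraries (all but normal cGAMP 1, MMTV-PyMT PBS 2, MMTV-PyMT cGAMP 1, implanted PBS 1 and 3, and implanted cGAMP 1 and 2), with adjusted p up to 0.226. That of Ifitm2 in the same ECs did not pass when 1 of 9 was left out, namely all 6 MMTV-PyMT libraries, normal PBS 2 and implanted PBS 1 and 3 (adjusted p up to 0.194). That of Ifitm1 in implanted tumour ECs was lost without any of the 3 PBS libraries or cGAMP 1 or 2 (0.170). Under PBS, the lower Bst2 in MMTV-PyMT ECs no longer passed when any normal PBS library was left out, or MMTV-PyMT PBS 1 or 3 (0.168), the higher Ifitm1 in implanted than MMTV-PyMT ECs without any implanted PBS library or MMTV-PyMT PBS 1 or 3 (0.131), and the lower Apobec3 in implanted than MMTV-PyMT ECs without any MMTV-PyMT PBS library or implanted PBS 2 or 3 (0.0940). The higher Mx1 in implanted than normal ECs under PBS was lost without any 1 of 12 libraries (up to 0.192), all but normal cGAMP 2 and 3, MMTV-PyMT PBS 1 and 2, implanted PBS 3 and implanted cGAMP 1. The higher Mx2 in implanted than MMTV-PyMT ECs under cGAMP was also lost without any 1 of 12 (up to 0.156), all but normal PBS 1 and 3, MMTV-PyMT PBS 1 and 2, MMTV-PyMT cGAMP 2 and implanted cGAMP 2. The lower Ifitm2 in implanted than normal ECs under cGAMP was lost without normal cGAMP 1 or implanted cGAMP 2 or 3 (0.111). The smaller change of Mx2 in implanted than MMTV-PyMT ECs was lost without MMTV-PyMT PBS 1 or cGAMP 2 (0.0533). The larger change of Mx1 was lost without normal PBS 2 in MMTV-PyMT against normal ECs (0.0540), and without MMTV-PyMT PBS 2, MMTV-PyMT cGAMP 2 or 3, implanted PBS 2 or 3, or implanted cGAMP 3 in implanted against MMTV-PyMT ECs (up to 0.0691).

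Some of these calls also turned on other settings. Mx1 under PBS in implanted against normal ECs was lost without the filter (adjusted p = 0.0524), with scaling by total reads (0.0922), with voom (0.0770) and with only the groups compared (0.0569). Mx2 under cGAMP in implanted against MMTV-PyMT ECs was lost with a pseudocount of 0.1 (0.138), without the filter (0.0540), with scaling by total reads (0.7503) and without the trend (0.0553). Between the tumours under PBS, voom lost Ifitm1 (0.0624) and Apobec3 (0.0518), quantile normalization lost Apobec3 (0.0787), and Ifitm2 was gained with voom (0.0161), with only the groups compared (0.0333) and with a mean FPKM of at least 5 (0.0494). With only the groups compared, Ifitm1 passed as lower in implanted than normal ECs under PBS (0.0133), and the lower Ifitm2 there under cGAMP was lost (0.141). For the difference of the change in MMTV-PyMT against normal ECs, Mx1 was lost with quantile normalization (0.128) and scaling by total reads (0.0531), and Samhd1 (0.0454) and Mx2 (0.0466) were gained with voom. In implanted against MMTV-PyMT ECs Mx1 was lost with the same scalings (0.184 and 0.180). With a mean FPKM of at least 5, Ifitm2 passed with cGAMP in implanted tumour ECs (0.0475).

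Other calls were gained by leaving out single libraries. Without implanted cGAMP 3, the library low in Ifitm1, that gene also passed in MMTV-PyMT ECs (log2 change 0.64, adjusted p = 0.0258), its change was larger in implanted than normal ECs (1.15, 0.00641) and than MMTV-PyMT ECs (0.94, 0.0293), and it was lower in implanted than normal ECs under PBS (-0.55, 0.0153) and higher under cGAMP (0.60, 0.0175). Ifitm2 passed in implanted tumour ECs without MMTV-PyMT cGAMP 2, implanted PBS 2 or implanted cGAMP 2 or 3 (adjusted p 0.0332 to 0.0479), and Apobec3 passed in normal ECs without normal cGAMP 3 or MMTV-PyMT cGAMP 1 (0.0234 and 0.0424). In the differences of the cGAMP change between MMTV-PyMT and normal ECs, Samhd1 passed without normal cGAMP 1 (0.0411) or MMTV-PyMT cGAMP 1 (0.0192). Mx2 passed in the same comparison without normal PBS 3 (0.0275). For the change between implanted and normal ECs, Ifitm3 passed without implanted PBS 1 (0.0486) or implanted cGAMP 3 (0.0421). Between tissues, Mx2 passed under cGAMP in implanted against normal ECs without normal PBS 3 (0.0389). Under PBS, implanted against MMTV-PyMT ECs passed for Ifitm2 without implanted cGAMP 1 (0.0275) and for Mx1 without MMTV-PyMT PBS 2 (0.0347).

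Most other genes listed for the same response rose as well, where 13.7%, 7.42% and 20.3% of tested genes rose in normal, MMTV-PyMT and implanted tumour ECs. Of 13 interferon signalling genes, normal ECs had 9 that rose and 3 that fell, MMTV-PyMT ECs had 9 and 0, and implanted tumour ECs had 10 and 1, with median log2 changes of 1.15, 1.44 and 1.53. Usp18, a negative regulator of the interferon receptor, rose by 4.03, 4.75 and 4.56. Socs1, an inhibitor of JAK kinases, rose by 2.43, 2.71 and 2.60. Irf7, which amplifies interferon production, rose by 2.39, 2.25 and 2.09. Of 19 measured other antiviral effectors (Trex1 was not in the table), 16, 17 and 17 rose in normal, MMTV-PyMT and implanted tumour ECs, with median log2 changes of 1.37, 2.06 and 2.37. Rsad2 (viperin) rose by 6.64, 7.49 and 6.96, and Isg15, a ubiquitin-like protein, by 4.68, 5.46 and 4.15. Serinc3, a membrane restriction factor of retroviruses, did not pass in any tissue (-0.01, -0.25 and 0.14), and Serinc5 passed only in implanted tumour ECs, where it fell by 0.25. Sp100, a nuclear body protein, rose by 0.82, 2.09 and 2.60 and its partner Pml by 1.64, 2.41 and 2.80.

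**Figure D5:**
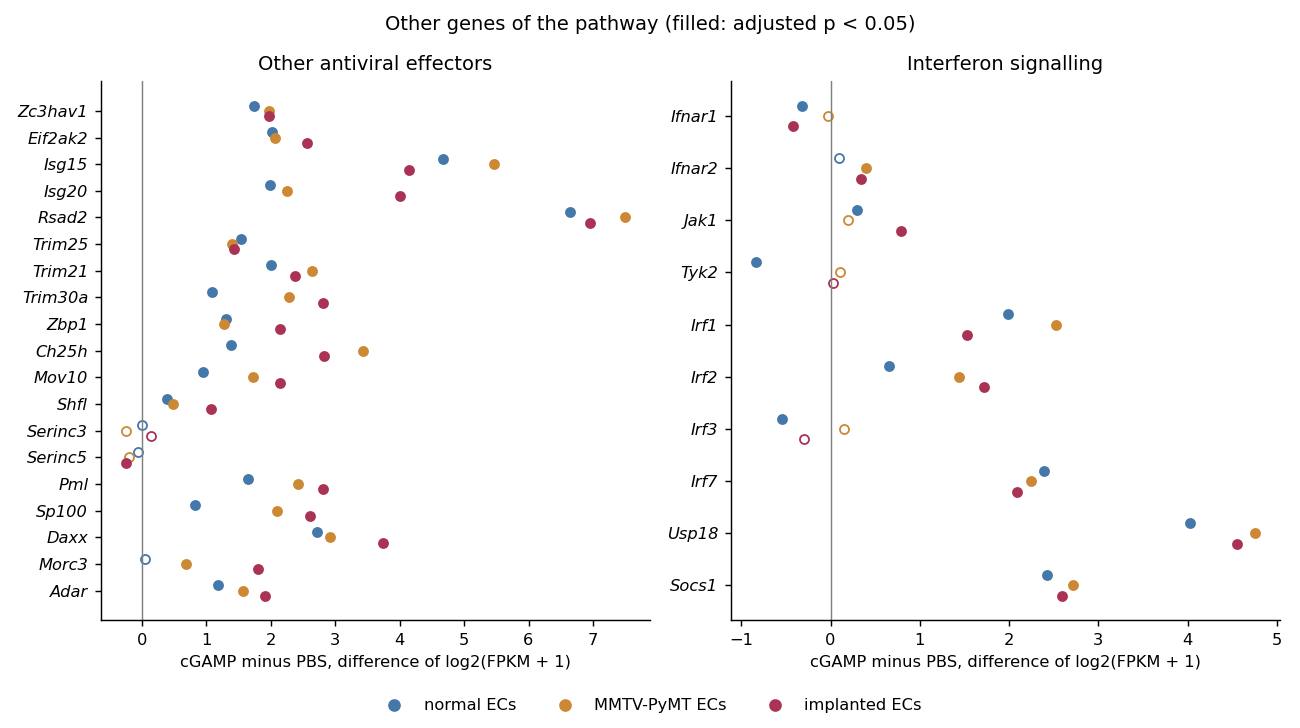
cGAMP minus PBS on the log2(FPKM + 1) scale for 19 other antiviral effectors (left) and 10 of the 13 interferon signalling genes (right), with 1 point per tissue, filled where the adjusted p was under 0.05. Rsad2 lies farthest right at 6.64 to 7.49, and Serinc3 is open in all 3 tissues.

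Of 6 measured dynamin-family relatives of the Mx proteins, which act in membrane scission and mitochondrial fission or fusion, none rose in any tissue. In normal, MMTV-PyMT and implanted tumour ECs, 2, 1 and 1 fell. Of all tested genes, 13.7%, 7.42% and 20.3% rose and 18.2%, 4.57% and 18.8% fell. The dynamin-family, dispanin and deaminase lists are too short for their counts to be told from these shares. The largest fall of the dynamin family was that of Mfn2 (mitochondrial fusion), by 0.38 in normal ECs and by 0.18 in implanted tumour ECs. Of 10 dispanin relatives of the IFITM proteins, 6 were not in the table, 1 was below the filter and 3 were tested. None of these 3 rose, and Ifitm10 fell by 0.42 in implanted tumour ECs from under 1 FPKM. Of 4 measured deaminase relatives of Apobec3, only Apobec1, an RNA-editing deaminase, rose, by 0.53, 0.53 and 1.45 in the 3 tissues. Adarb1, which edits RNA at adenosines, fell by 0.64 in implanted tumour ECs, and the tRNA deaminase Adat1 fell by 0.32 in normal ECs. Among 11 nucleotide supply genes listed beside Samhd1, which lowers deoxynucleotide pools, Dck, the deoxycytidine kinase of the salvage pathway, rose in all 3 tissues by 0.48, 0.62 and 2.33. In normal ECs Tk1, a thymidine kinase, rose by 0.49 as well, and the mitochondrial deoxyguanosine kinase Dguok and the reductase subunit Rrm2b fell by 0.70 and by 0.54. Rrm2, a subunit of ribonucleotide reductase, fell by 0.84 in implanted tumour ECs, where Tk1 (0.61) and Rrm1 (0.32) fell as well, and Dck alone rose. Promoter windows with an ISRE core were found for 5 of 17 other antiviral effectors and 3 of 11 interferon signalling genes that had a window. The share was 3.64% of all table genes with a window. None was found for the dispanin, dynamin-family, deaminase and nucleotide supply genes with a window (3, 7, 3 and 10), which is near that share for lists this short.

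Across the 18 libraries, the genes whose log2(FPKM + 1) followed each factor most closely are given as a description, because the libraries form 6 groups and are not independent points. Mx2 lay nearest to Rsad2 (Pearson r = 0.995), Ifit2 (0.993) and Ifit1 (0.992), and Mx1 to Cmpk2 (0.993), Ifih1 (0.990) and Ifit1bl2 (0.989). Samhd1 lay nearest to Phc2 (0.991), Ifi35 (0.989) and Tdrd7 (0.986), and Bst2 to H2-K1 (0.988), Lgals3bp (0.983) and Gm8909 (0.981), of which H2-K1 encodes a classical MHC class I chain. Ifitm3 followed Trim12c (0.97), Nfkb2 (0.97) and AW112010 (0.97), and Apobec3 followed Naa25 (0.96), Ythdf1 (0.96) and Etnk1 (0.96). Ifitm2 followed Mmrn1 (0.96), Cpne2 (0.96) and Kalrn (0.95), and Ifitm1 followed Thy1 (0.94), Msx1 (0.92) and Prkx (0.92).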

How the data were processed

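RNA was sequenced from ECs of 18 samples in 6 groups of 3. Per the labels and the study's methods, libraries were made with a directional kit and sequenced as paired ends, and the submitters' notes name FastQC, STAR 2.7, HTSeq and mm10. The deposited table holds FPKM values that the authors computed, and how FPKM was derived and whether counting used strand are not given in the sources used here. The columns of normal ECs name no tissue and were assigned by elimination. Every gene but 1 gave whole reads in all libraries within 0.05 (99.99% of genes), which gave 9184658 to 12200551 reads per library. These carry no molecular identifiers, so read numbers show counting error only.

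Genes with FPKM of at least 1 in at least 3 libraries were tested (13983, with 2265 below). Here log2(FPKM + 1) was fitted with limma 3.58.1 in R 4.3.3, with 1 mean per group over all 18 libraries and a trend in the variance, and p-values were adjusted by Benjamini-Hochberg over all tested genes for each of 12 comparisons. The script was tested on simulated data. The study's legend gives 3 mice a group, but which library came from which experiment is not stated, so that p-values measure the spread between these samples. No pair of libraries agreed within sampling noise. The 8 genes were named by symbol, and they and the 6 gene lists were chosen with earlier results of these data known. In the lists, genes with the largest change were named, and others were chosen after their values were seen. For each of the 8, the 3 genes with the highest Pearson correlation were named. Of the interferon signalling list, 3 genes are counted but not reported singly here. Motifs were sought in RefSeq windows of GRCm38.p6. Alternatives were another pseudocount, filter, scaling, variance model, replicate block and leaving out each library.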

Additional observations from a re-analysis of the deposited data

Results flagged for a closer look

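The cGAMP change of 4 of the 8 genes differed between tissues by a test of the difference itself, in 8 combinations of gene and comparison (limma, adjusted p under 0.05). All values are differences of log2 changes. Samhd1 changed more in implanted tumour ECs than in normal ECs by 1.96 and than in MMTV-PyMT ECs by 1.32. Apobec3 changed more in implanted tumour ECs than in normal ECs by 0.99 and than in MMTV-PyMT ECs by 0.77. Mx1 changed more in implanted than in normal ECs by 1.66, in MMTV-PyMT than in normal ECs by 0.87 and in implanted than in MMTV-PyMT ECs by 0.78, and none of these passed with a pseudocount of 0.1. Mx2 changed less in implanted than in MMTV-PyMT ECs, at -0.90. The pairs of comparisons share libraries. Groups of 3 are too small for a test of single outlying samples.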

How the results depend on the processing

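Of 852 values of the 8 genes under the alternatives, 780 kept direction and side of the threshold, 38 lost a call, 13 gained one and 21 changed sign. Of 1728 values without 1 library, 1617 were unchanged in this sense, 76 lost and 18 gained a call and 17 changed sign. Requiring a 2-fold change, set as 1 on the log2(FPKM + 1) scale, left 2 genes in normal and 4 in MMTV-PyMT ECs for cGAMP against PBS. Some genes over 2-fold in mean FPKM fell short of it. Under PBS these were Mx2 in MMTV-PyMT against normal ECs (-0.69) and Ifitm1 in implanted against MMTV-PyMT ECs (0.98). The requirement left 0 for the difference of the change between MMTV-PyMT and normal ECs and 1 between implanted and MMTV-PyMT ECs. Between tissues under PBS it left 2 (MMTV-PyMT against normal), 1 (implanted against normal) and 3 (implanted against MMTV-PyMT), and under cGAMP 1 (MMTV-PyMT against normal). The count of 1 for the change in MMTV-PyMT against normal ECs was 0 with a pseudocount of 0.1, quantile normalization or scaling by total reads, 2 with voom, and 0 to 2 without single libraries. The counts of 3 for implanted against normal and of 4 for implanted against MMTV-PyMT ECs ran from 3 to 5 and from 2 to 4 without single libraries. The cause was not tested.

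Signs changed after quantile normalization for Ifitm2 with cGAMP in implanted ECs (-0.26, past the threshold), for the change in implanted against normal ECs of Ifitm2 (-0.24) and Ifitm3 (-0.17) and against MMTV-PyMT ECs of Bst2 (-0.32) and Ifitm3 (-0.58), and under cGAMP in implanted against normal ECs for Ifitm3 (-0.14) and Mx2 (-0.25) and against MMTV-PyMT ECs for Ifitm2 (-0.28, past the threshold) and Mx2 (-0.034). With scaling by total reads they changed for Ifitm2 with cGAMP in implanted ECs (-0.080), for the change of Ifitm2 against normal (-0.071) and of Bst2 (-0.11) and Ifitm3 (-0.17) against MMTV-PyMT ECs, for Samhd1 (-0.037) and Apobec3 (-0.071) under PBS and Mx2 (-0.15) under cGAMP against normal ECs, and for Ifitm2 under cGAMP against MMTV-PyMT ECs (-0.18, past the threshold). With voom they changed for Ifitm2 with cGAMP in normal ECs (0.010) and for the change in implanted against MMTV-PyMT ECs of Bst2 (-0.031), Ifitm3 (-0.059) and Mx1 (-0.12). Without single libraries they changed for Ifitm2 with cGAMP in normal ECs (-0.060 to 0.046, positive at 0.0045, 0.042 and 0.046), Ifitm1 in the change of MMTV-PyMT against normal ECs (-0.0017 to 0.40), and, in the change of implanted against MMTV-PyMT ECs, Bst2 (-0.18 to 0.27, negative at -0.18, -0.12 and -0.037) and Ifitm3 (-0.12 to 0.11, negative at -0.12, -0.092, -0.090 and -0.12). They also changed for Mx1 under PBS (-0.054 to 0.21) and Bst2 (-0.38 to 0.0077) and Samhd1 (0.024 and 0.059) under cGAMP in MMTV-PyMT against normal ECs, and for Ifitm1 under cGAMP in implanted against normal ECs (0.038 and 0.60).

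Scaling by total reads moved the median of all tested genes to -0.14 with cGAMP in MMTV-PyMT ECs, to -0.33 and -0.24 for implanted against normal and MMTV-PyMT ECs under cGAMP, and to -0.13 for both under PBS. Same-numbered libraries did not deviate together (45 pairs, correlation from -0.35 to 0.29, own number highest in 13). With the replicate number as a block, 4, 6 and 7 genes passed for cGAMP in normal, MMTV-PyMT and implanted ECs, and the calls of Ifitm2 in MMTV-PyMT ECs (adjusted p = 0.0583) and Mx2 under cGAMP in implanted against MMTV-PyMT ECs (0.056) were lost. Mx1 under PBS rested on 5 to 31 reads per library, which limits its fold.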
